A study of Mus musculus with 4 samples.

Results

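Mcpt8, Prss34, Cpa3, Ms4a2, Fcer1a and Gata2, which serve as genes of basophils and mast cells, were followed across the cells of 4 single-cell RNA libraries from mouse fetuses. The 6 genes were taken by name from the 31053 genes of the count matrix, and all 6 were found there. All fetuses were labelled Cyp27a1-/-, lacking the sterol 27-hydroxylase, so no fetus carried a working copy per the labels. They differed in the mother, Cyp27a1-/- (null) or Cyp27a1+/- (heterozygous), and in age, E18.5 or E14.5. There was 1 library in each of the 4 groups, with 16517 cells at E18.5 with a null mother, 17034 at E18.5 with a heterozygous mother, 4843 at E14.5 with a null mother and 4957 at E14.5 with a heterozygous mother. With 1 library a group no p-value is given, and every interval below is a 95% interval that covers counting error only. The labels do not state how many fetuses or mothers stand behind a library.

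Basophils and mast cells are granulocytes of the blood and of tissues that bind IgE through the high-affinity receptor FceRI and release histamine, proteases and cytokines when that receptor is crosslinked. In the mouse, Mcpt8 and Prss34 encode serine proteases of basophil granules, and Cpa3 encodes the carboxypeptidase of mast cell granules, which basophils and some blood progenitors also carry. Fcer1a encodes the receptor chain that binds IgE, and Ms4a2 the chain that amplifies its signal. Gata2 encodes a transcription factor that both lineages need and that blood stem cells, megakaryocytes and endothelium also use. Basophils come from progenitors made in the fetal liver and later the bone marrow, and mast cells settle in tissues before birth.

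The tissue label held at E14.5 and not at E18.5. Nkx2-1, the lung epithelial transcription factor, had 1 UMI (a unique molecular identifier, marking 1 captured RNA molecule) in the E18.5 null-mother library and 4 in the E18.5 heterozygous-mother library, against 2804 and 1935 in the E14.5 libraries with a null and a heterozygous mother. Alb, encoding the hepatocyte protein albumin, was at 8344 and 2905 CPM (UMIs scaled to a total of 1000000) in the E18.5 libraries with a null and a heterozygous mother, and at 0.469 and 0.574 CPM in those at E14.5. The libraries labelled E18.5 lung thus carried transcripts of liver and blood-forming cells, and levels are not compared between the ages. The title of the E18.5 heterozygous-mother library includes 'WT', at odds with its stated genotype, and the stated genotype was followed. Cyp27a1 itself had 37.3 and 38.5 CPM in the E18.5 libraries with a null and a heterozygous mother, and 19.7 and 18.7 CPM in those at E14.5. The labels do not say which part of the gene was deleted, so these UMIs check nothing. Fetal sex also differed. Cells with UMIs of Y-linked genes and none of Xist numbered 3875, against 4411 with the reverse, in the E18.5 null-mother library. They numbered 5395 against 22 in the E18.5 heterozygous-mother library. At E14.5 they numbered 726 against 2052 with the null mother and 819 against 1507 with the heterozygous mother. Median UMIs per cell were 4848 and 3783 at E18.5 and 6387 and 3697 at E14.5, for null and heterozygous mothers in that order, and haemoglobin took 5.92% and 14.2% of UMIs at E18.5. Cell barcodes found in both libraries of an age numbered 164 at E18.5 and 94 at E14.5.

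The members lie on 6 chromosomes (build mm10, GENCODE M21 positions), so no member neighbours another. The granule protease genes are Mcpt8 (ENSMUSG00000022157) at chr14:56082166-56085273 on the minus strand, Prss34 (ENSMUSG00000056399) at chr17:25298394-25300165 on the plus strand and Cpa3 (ENSMUSG00000001865) at chr3:20215620-20242181 on the minus strand. The receptor genes are Ms4a2 (ENSMUSG00000024680) at chr19:11615523-11623719 and Fcer1a (ENSMUSG00000005339) at chr1:173221284-173227214, both on the minus strand. Gata2 (ENSMUSG00000015053) is at chr6:88193891-88207032 on the plus strand. All 6 are annotated as protein coding, and the only annotated genes that overlap any of them are a microRNA gene within Mcpt8 and another within Cpa3, neither of which is a row of the matrix. Mcpt8 and Prss34 belong to protease families with related genes, and how reads that fit more than 1 of them were counted is not given in the sources used here.

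Because the members were found in the same cells, and one of them encodes a GATA factor, the 250 bases before the RefSeq start of each gene were searched for the motif AGATAA, a preferred GATA site, on both strands. RefSeq (GRCm38.p6) held a promoter entry for all 6 genes. The motif was present in 4 of the 6 genes, and 9.99% of the 32851 promoter windows of the same length in the RefSeq table hold it. The windows of these 4 genes are printed 5′ to 3′ on the gene's strand, ending at the base before the start, with AGATAA or its reverse complement TTATCT in capitals, and Mcpt8, which has no match, is printed after them for comparison. Prss34 is chr17:25298144-25298393, Cpa3 is chr3:20242182-20242431, Ms4a2 is chr19:11623720-11623969, Fcer1a is chr1:173227230-173227479 and Mcpt8 is chr14:56085198-56085447.
Prss34: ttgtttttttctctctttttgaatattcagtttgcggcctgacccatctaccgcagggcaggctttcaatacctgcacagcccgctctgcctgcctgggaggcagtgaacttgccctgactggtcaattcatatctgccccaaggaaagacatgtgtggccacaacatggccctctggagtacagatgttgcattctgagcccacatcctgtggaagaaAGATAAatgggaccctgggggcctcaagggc
Cpa3: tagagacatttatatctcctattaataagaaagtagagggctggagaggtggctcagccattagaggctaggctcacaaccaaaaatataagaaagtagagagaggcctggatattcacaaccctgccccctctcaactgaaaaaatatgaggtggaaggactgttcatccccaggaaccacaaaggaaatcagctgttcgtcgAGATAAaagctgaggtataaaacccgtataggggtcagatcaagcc
Ms4a2: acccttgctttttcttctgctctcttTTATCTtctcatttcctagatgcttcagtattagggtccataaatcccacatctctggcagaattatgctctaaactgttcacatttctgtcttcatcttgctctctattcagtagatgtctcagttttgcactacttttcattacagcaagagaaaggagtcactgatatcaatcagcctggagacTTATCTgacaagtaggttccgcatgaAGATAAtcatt
Fcer1a: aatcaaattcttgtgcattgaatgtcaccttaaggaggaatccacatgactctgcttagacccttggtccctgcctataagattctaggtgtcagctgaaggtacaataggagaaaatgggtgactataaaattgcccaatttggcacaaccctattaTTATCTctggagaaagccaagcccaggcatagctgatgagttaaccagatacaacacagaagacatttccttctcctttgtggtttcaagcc
Mcpt8: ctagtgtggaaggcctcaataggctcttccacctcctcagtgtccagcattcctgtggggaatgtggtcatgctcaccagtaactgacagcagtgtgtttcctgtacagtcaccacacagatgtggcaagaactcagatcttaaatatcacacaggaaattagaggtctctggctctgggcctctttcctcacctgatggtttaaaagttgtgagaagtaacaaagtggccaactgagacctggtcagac
The match lies 31 bases before the start in Prss34, 46 in Cpa3 and 92 in Fcer1a, counted to its first base. Ms4a2 has 3 matches, at 224, 37 and 11 bases before the start. Mcpt8 has the shorter core GATA once, 105 bases before the start, and 53.6% of windows hold that core. Neither of the 2 RefSeq starts of Gata2 has AGATAA or the core in its window. These matches are letters in a window and no record of binding.

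At E18.5 all 6 members were lower in the library with the null mother, as were 35.9% of all genes tested. Mcpt8 had 1365 UMIs (11.6 CPM, interval 11.0 to 12.2) with the null mother and 4745 UMIs (48.5 CPM, 47.1 to 49.9) with the heterozygous mother, a ratio of 0.239 (0.224 to 0.253). Prss34 had 1775 UMIs (15.0 CPM) and 4376 UMIs (44.7 CPM) with the null and the heterozygous mother, a ratio of 0.336 (0.318 to 0.356). Cpa3 had 855 UMIs (7.24 CPM) with the null mother and 1207 (12.3 CPM) with the heterozygous mother, a ratio of 0.587 (0.537 to 0.642). Mcpt8 and Prss34 thus stood further apart between the mothers than Cpa3, with intervals that do not overlap. The IgE receptor chains followed the same direction. Ms4a2 had 259 UMIs (2.19 CPM) with the null mother and 401 (4.10 CPM) with the heterozygous mother, a ratio of 0.536 (0.456 to 0.628). Fcer1a had 8 UMIs in 5 cells with the null mother and 58 UMIs in 31 cells with the heterozygous mother, a ratio of 0.114 (0.0472 to 0.241). Gata2 had 675 UMIs (5.72 CPM) and 945 UMIs (9.65 CPM) with the null and the heterozygous mother, a ratio of 0.592 (0.536 to 0.654). The 6 members together were at 41.8 CPM with the null mother and 119.8 CPM with the heterozygous mother, a ratio of 0.349 (0.337 to 0.361).

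A gene was counted as past 2-fold when the log2 ratio of CPM + 10 exceeded 1 in size and the library with the higher level had at least 50 UMIs. By this rule 2 of the 6 members, Mcpt8 (log2 ratio -1.44) and Prss34 (-1.13), were lower with the null mother at E18.5 and none was higher. Of all 13627 genes tested, 0.154% were lower and 1.23% higher by the same rule, and the median log2 ratio over all genes was 0.03. The other 4 members had log2 ratios between -0.37 and -0.07 on this scale, which understates the ratio of genes with few UMIs such as Fcer1a.

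**Figure D1:**
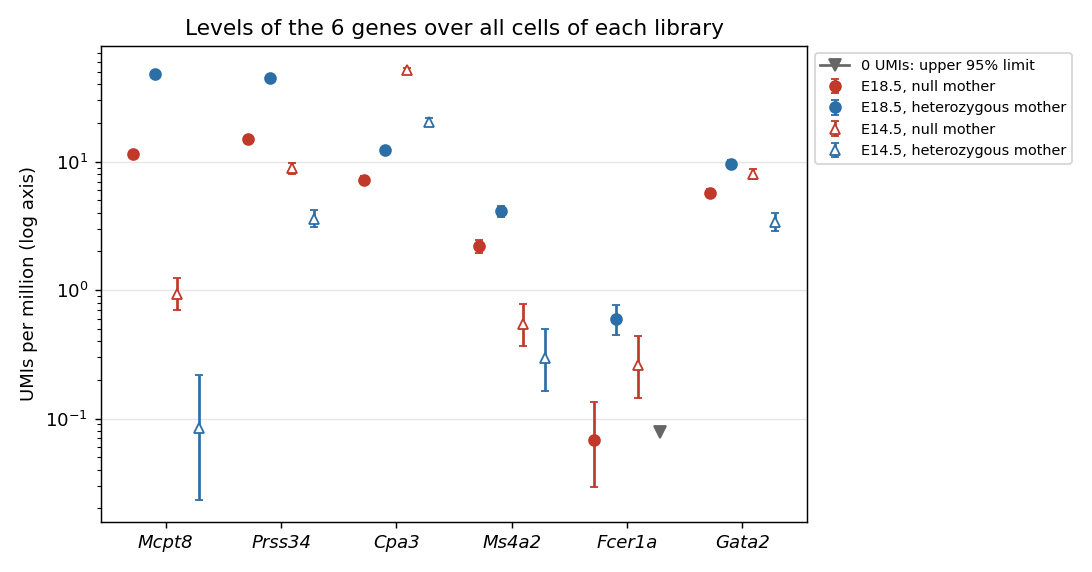
Level of each gene over all cells of each library, in CPM on a log axis, with 95% Poisson intervals of the count and 1 library a group. At E18.5 all 6 genes are lower with the null mother (Mcpt8 11.6 against 48.5), as are 35.9% of all genes tested. At E14.5 all 6 are higher with it, Ms4a2 with intervals that overlap, as are 43.2% of all genes tested. Fcer1a, with 0 UMIs in the E14.5 heterozygous-mother library, is drawn at its upper limit.

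Most UMIs of the members came from few cells. Cells with UMIs of at least 3 of the 6 members numbered 71 of 16517 with the null mother at E18.5 (0.430%, Clopper-Pearson interval 0.336 to 0.542) and 106 of 17034 with the heterozygous mother (0.622%, 0.510 to 0.752). The ratio of the 2 shares was 0.691 (0.504 to 0.942). The interval included 1 for cells with at least 2 members, at 0.921 (0.718 to 1.18), and among cells with UMIs of Y-linked genes and none of Xist, at 0.6497 (0.368 to 1.11). These cells held 98.8% and 98.6% of the Prss34 UMIs with the null and the heterozygous mother, and 89.5% and 97.7% of the Mcpt8 UMIs. They held 64.7% and 76.1% of the Cpa3 UMIs and 38.4% and 59.3% of the Gata2 UMIs. The members were thus not alike in how far they were restricted to such cells: Prss34 most and Gata2 least, among these 4 genes. All 6 members were found together in 2 cells with the null mother and 23 with the heterozygous mother.

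The genes co-occurred in single cells far above their share of all cells. Of the 81 cells with Prss34 in the E18.5 null-mother library, 64.2% also had Mcpt8 and 67.9% Cpa3, while 0.860% and 1.02% of all its cells had those genes. Of the 150 Prss34 cells in the heterozygous-mother library, 60.0% had Mcpt8 and 57.3% had Cpa3. Ms4a2, the receptor chain, was found beside Gata2 in 53.4% of 103 cells with the null mother and 83.8% of 111 with the heterozygous mother. Gata2 was found in more cells than any other member. Of its 334 cells with the null mother 14.7% had Mcpt8, and of its 349 with the heterozygous mother 27.2%. Mcpt8 was in 0.860% and 1.11% of all cells of those libraries. In the other direction, 34.5% of 142 Mcpt8 cells with the null mother and 50.3% of 189 with the heterozygous mother had Gata2. Gata2 was in 2.02% and 2.05% of all cells.

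Within the E18.5 cells with at least 3 members, the members differed between the libraries by unequal amounts. Mcpt8 had a median of 5 UMIs a cell (highest 67) in the 71 cells with the null mother and 33.5 (highest 186) in the 106 with the heterozygous mother. It was found in 76.1% and 91.5% of them. Prss34 had medians of 12 and 27.5 UMIs, with highest values of 173 and 239, for the null and the heterozygous mother. Cpa3 had a median of 5 UMIs in both, and its highest cell was at 91 UMIs with the null mother and 38 with the heterozygous mother. The ranges of all 6 genes overlapped widely from cell to cell. Ms4a2 was found in 85.9% and 87.7% of the cells with the null and the heterozygous mother, and Gata2 in 87.3% and 95.3%. Fcer1a, the IgE-binding chain, was found in 7.04% of the cells with the null mother (5 of 71, interval 2.33 to 15.7) and 28.3% with the heterozygous mother (30 of 106, 19.98 to 37.9). Depth was close: the median was 6059 UMIs a cell with the null mother and 6392 with the heterozygous mother.

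**Figure D2:**
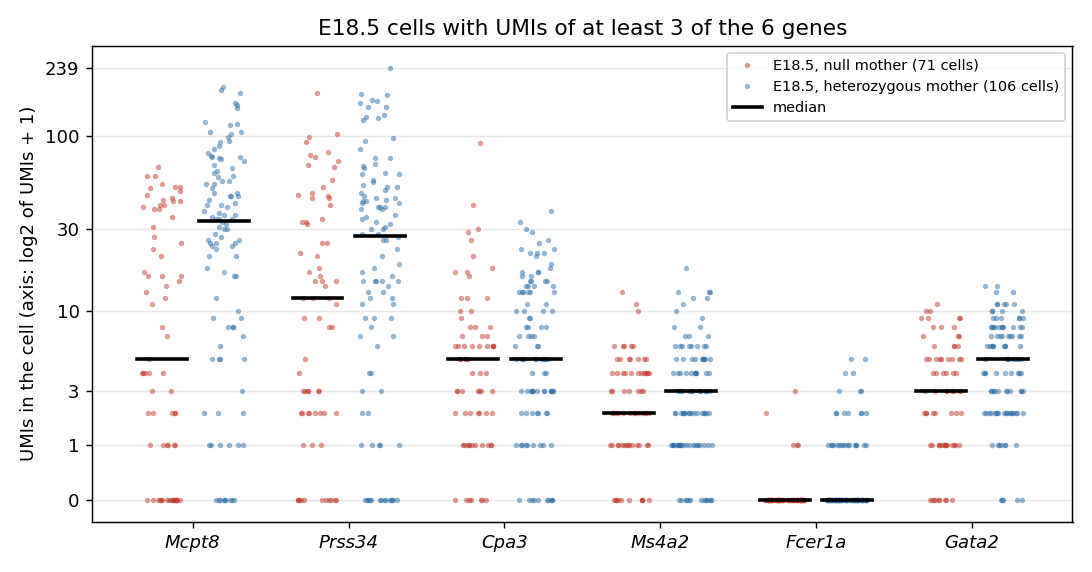
UMIs of each gene in single E18.5 cells with at least 3 of the 6 genes, on an axis of log2 of UMIs + 1, with the null mother (71 cells) left of the heterozygous mother (106 cells) and black bars at the medians. The medians of Mcpt8 are 5 and 33.5 and those of Cpa3 are 5 in both, and the ranges overlap for every gene.

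As CPM of these cells, Mcpt8 was at 2112 with the null mother and 5752 with the heterozygous mother (ratio 0.367, 0.344 to 0.391), and Prss34 at 3032 and 5351 (0.567, 0.536 to 0.599). The ratios were 0.840 (0.755 to 0.935) for Cpa3, 0.761 (0.640 to 0.904) for Ms4a2, 0.196 (0.0806 to 0.412) for Fcer1a and 0.645 (0.555 to 0.749) for Gata2. Here 2 of 6 members, Mcpt8 and Fcer1a, were past 2-fold lower and none was higher, against 1.67% of 2162 tested genes lower and 2.41% higher. The members chose these cells, and Fcer1a reached the 50 UMIs through the heterozygous-mother cells alone (8 and 57 UMIs), so nothing is read from this count. In all other cells the summed members were at 7.96 CPM with the null mother and 8.90 CPM with the heterozygous mother, a ratio of 0.894 (0.814 to 0.982). The members chose the cells, and their parts in the sum differed. Prss34 made up 1753 of the 4002 UMIs of the sum in the chosen null-mother cells and 22 of 935 in the rest. No order is thus read from the ratios of the sum. Prss34 in all other cells had 22 UMIs with the null mother and 62 with the heterozygous mother, a ratio of 0.293 (0.172 to 0.484). Erythroid cells held 4 Prss34 UMIs with the null mother and 20 with the heterozygous mother, each in a different cell. Such UMIs are described below, and the part of background in the Prss34 ratio of all other cells was not tested. Ms4a2 went the other way in all other cells, with 51 and 20 UMIs and a ratio of 2.11 (1.23 to 3.73). Markers of other cell types also differed between these cells. The 6 hepatocyte markers, all detected in both, summed to 6751 CPM with the null mother and 248 CPM with the heterozygous mother, against 25465 and 8341 CPM in all other cells. Of the 991 Alb UMIs in these cells with the null mother, 730 lay in 1 cell. The 8 neutrophil markers, all detected in both, summed to 24857 and 10644 CPM, against 63719 and 64644 CPM in all other cells. Scrublet called 3 of the 71 cells with the null mother and 1 of the 106 with the heterozygous mother doublets, and the part of these markers in the ratios was not tested.

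**Figure D3:**
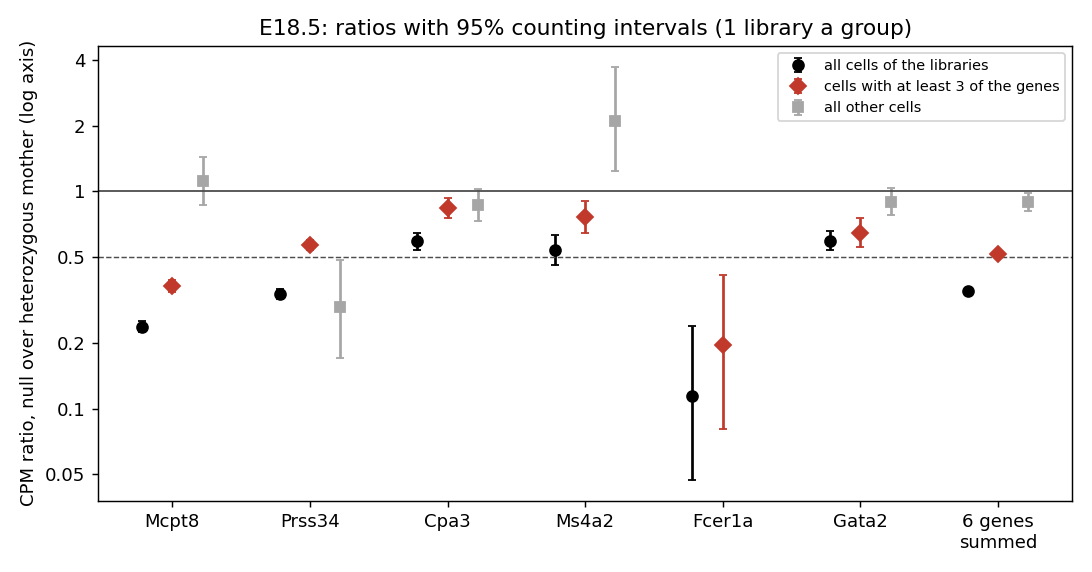
Ratio of CPM, null over heterozygous mother, at E18.5 on a log axis, for each gene and the sum, over all cells, over cells with at least 3 of the genes and over all other cells, with 95% counting intervals. A line marks a ratio of 1 and a dashed line 0.5, and Fcer1a in other cells, with 0 and 1 UMIs, is not drawn. The sum lies at 0.349 over all cells, 0.514 in cells with at least 3 genes and 0.894 elsewhere.

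Choosing cells by the members themselves fixes part of these values, so the cells were also grouped without them. When the E18.5 cells were clustered with the 6 members left out, at a resolution of 2, 1 cluster of 82 cells with the null mother and 111 with the heterozygous mother held 66 of the 71 and 102 of the 106 cells with at least 3 members. That is 0.496% (0.395 to 0.616) and 0.652% (0.536 to 0.784) of the libraries, a ratio of 0.762 (0.566 to 1.02), whose interval includes 1. The genes that led it, members aside, included the basophil markers Cd200r3, an activating receptor, Cyp11a1, a steroid-synthesis enzyme, and Hdc, the histamine-making enzyme. Prg2, a granule protein of eosinophils, also led it, from 8 of its cells with the null mother and 7 with the heterozygous mother. Here Mcpt8 had 2139 CPM with the null mother and 5478 CPM with the heterozygous mother, its ratio being 0.390 (0.366 to 0.416). Prss34 had a ratio of 0.597 (0.565 to 0.632), Gata2 of 0.693 (0.597 to 0.804), Ms4a2 of 0.800 (0.670 to 0.952), Cpa3 of 0.898 (0.807 to 1.00) and Fcer1a of 0.210 (0.0866 to 0.444). The 6 ratios stood in the same order as in the cells chosen by the members, which are mostly the same cells. No member was found in 6 of the cluster's cells with the null mother and 2 with the heterozygous mother. At the resolution of 1 used elsewhere, the same cells lay within a larger cluster of 999 cells, cluster 3, with blood progenitors.

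Other basophil and mast cell markers were read in the E18.5 cells with at least 3 members. Of the 7 basophil markers all were detected, summing to 1565 CPM with the null mother and 2538 CPM with the heterozygous mother, against 68.9 and 74.6 CPM in all other cells. Of the mast cell proteases, Mcpt4 and Tpsab1 had 0 UMIs in both, and Tpsb2 had 1 UMI with the null mother and 0 with the heterozygous mother. Cma1, the mast cell chymase, had 50 UMIs with the null mother, all in 1 cell, and 4 with the heterozygous mother. Kit, the stem cell factor receptor of mast cells and progenitors, was at 46.7 CPM with the null mother and 42.2 CPM with the heterozygous mother. The mast cell protease genes other than Cpa3 were thus at or near 0 in most of these cells. The whole list of 7 mast cell markers, which shares Hdc with the basophil list, had 5 detected with the null mother and 4 with the heterozygous mother, summing to 739 and 1054 CPM. Of 5 eosinophil markers, 4 were detected with the null mother and 5 with the heterozygous mother, summing to 439 and 496 CPM, and Prg2 came from 3 cells in each library.

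Gene groups around the members were read in the same cells. Of the 8 genes of the cytokine and chemokine list, 6 had enough UMIs, and 3 of them, Ccl3, Ccl4 and Ccl6, were past 2-fold lower with the null mother. Of all 2162 genes tested in these cells, 1.67% were past 2-fold lower with the null mother and 63.5% were lower by any amount. Ccl6 and Il6 reached the 50 UMIs through the heterozygous-mother cells alone, so the list is given by its single values. Ccl3, a chemokine of activated basophils, was at 675 CPM with the null mother and 1565 CPM with the heterozygous mother (ratio 0.431, 0.384 to 0.483). Ccl4 was at 168 and 623 CPM (0.269, 0.215 to 0.336), and Ccl6 at 60.5 and 422 CPM (0.144, 0.0983 to 0.204). Ccl9 had a ratio of 0.506 and Il6 of 0.677, while Csf1, the macrophage growth factor, was at 239 and 242 CPM (0.987, 0.788 to 1.23). Il4 and Il13, the type 2 cytokines, had 16 and 6 UMIs with the null mother and 31 and 13 with the heterozygous mother, too few for the rule.

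Of the cytokine receptors, 5 of 8 had enough UMIs and none passed 2-fold. Csf2rb2 (23 UMIs with the null mother, 51 with the heterozygous mother) and Il1rl1 (43 and 90) had enough through the heterozygous-mother cells alone, and Kit, with 27 and 34 UMIs and a ratio of 1.11 (0.643 to 1.89), had too few. Csf2rb, the shared chain of the IL-3 and GM-CSF receptors, had a ratio of 0.608 (0.496 to 0.742), and Il3ra, the IL-3 receptor chain that drives basophil growth, had 0.748 (0.571 to 0.973). Il1rl1, the IL-33 receptor, had a ratio of 0.666 (0.452 to 0.969), and Crlf2 of 0.806 (0.587 to 1.10). Of the IgE receptor signalling list, 4 of 12 had enough UMIs and none passed 2-fold. Fcer1g, the receptor's signalling chain, was at 1399 CPM with the null mother and 1759 CPM with the heterozygous mother (ratio 0.796, 0.729 to 0.868). The adaptor Lat had a ratio of 1.20 (0.815 to 1.75) and Lat2 of 0.717 (0.563 to 0.909). Fyn had 0.794 (0.538 to 1.16), with 45 and 79 UMIs, enough through the heterozygous-mother cells alone. Of the mediator list, 4 of 9 had enough UMIs and none passed 2-fold. Hdc had a ratio of 0.600 (0.528 to 0.681) and Alox5, the leukotriene enzyme, of 0.598 (0.452 to 0.783), while Alox15, a lipoxygenase, had 1.01 (0.713 to 1.41) and Srgn, the granule proteoglycan core, had 0.912 (0.844 to 0.984). Of the transcription factor list, 4 of 12 had enough UMIs and none passed 2-fold: Cebpa, a granulocyte factor, had a ratio of 0.604 (0.432 to 0.835), Runx1 of 0.833, Ikzf1 of 0.868 and Spi1 of 1.03. Of the other granule proteases, 2 of 13 had enough UMIs. Ctsg, a protease of neutrophil precursors, was at 1360 and 1074 CPM (1.27, 1.15 to 1.40). Cma1 was past 2-fold higher, with 50 UMIs with the null mother and 4 with the heterozygous mother. It had enough UMIs through 1 null-mother cell alone, so nothing is read from this call.

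Cells with and without Ccl3 are described apart, a split chosen after the values had been seen, so no ratio between the mothers is given within it. Ccl3 was found in 47 of the 71 cells with the null mother and 84 of the 106 with the heterozygous mother. Depth differed between the kinds: the median was 5326 UMIs a cell with the null mother and 5250 with the heterozygous mother in cells with Ccl3, and 8624 and 10543 in cells without it. Fcer1a was found almost only beside Ccl3: its 8 UMIs with the null mother and 56 of its 57 with the heterozygous mother lay in cells with Ccl3. The cells without Ccl3 had more Mpo, encoding the peroxidase of myeloid precursor granules, with 3326 CPM against 1482 CPM in the cells with Ccl3 for the null mother, and 2515 CPM against 720 CPM for the heterozygous mother.

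At E14.5 the members were higher in the library with the null mother, Ms4a2 only within its counting error, and so were 43.2% of all genes tested. Few cells decided it for the members other than Gata2. In cells with fewer than 3 members, Gata2 had 236 UMIs with the null mother and 139 with the heterozygous mother. That is a ratio of 1.51 (1.22 to 1.87), and the summed members had 1.45 (1.21 to 1.74) in the same cells. Cpa3 had 2778 UMIs (52.1 CPM, 50.2 to 54.1) with the null mother and 962 UMIs (20.5 CPM, 19.2 to 21.8) with the heterozygous mother, a ratio of 2.55 (2.37 to 2.74). Of the 962 UMIs, 94.4% lay in a single cell. Prss34 had 473 UMIs with the null mother and 169 with the heterozygous mother, 168 of them in that same cell. Mcpt8 had 50 UMIs with the null mother and 4 with the heterozygous mother. Ms4a2 had 29 and 14, a ratio of 1.83 whose interval includes 1 (0.935 to 3.74), and Gata2 had 428 and 159. Fcer1a had 14 UMIs in 5 cells with the null mother and 0 UMIs in 4957 cells with the heterozygous mother, and the counting interval of the ratio starts at 2.93. The summed members were at 70.8 CPM with the null mother and 27.8 CPM with the heterozygous mother, a ratio of 2.54 (2.39 to 2.71). Of the 4 members with enough UMIs, 1, Cpa3 (log2 ratio 1.03), was past 2-fold higher and none was lower, against 0.118% and 0.0813% of 13526 genes. Without the cell with the most member UMIs in each library the ratio of the sum was 13.2 (11.4 to 15.3), and with the deepest cells (those past the 95th percentile of UMIs) left out it was 1.28 (1.19 to 1.37). Among cells with UMIs of Y-linked genes and none of Xist the direction turned, with a ratio of 0.331 (0.293 to 0.373), and there was then 1 cell with at least 3 members on each side.

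Cells with at least 3 members numbered 13 of 4843 with the null mother (0.268%, 0.143 to 0.459) and 1 of 4957 with the heterozygous mother (0.0202%, 0.000511 to 0.112). All 14 fell in 1 cluster of 66 cells, cluster 22, whose leading genes mixed Cma1 and Cpa3 with the T cell genes Cd3g, Trbc1 and Trbc2, and the members were left out of that clustering too. Cd3e, the T cell receptor subunit, had 0 UMIs in all 14. Xist was found in 11 of the 13 cells with the null mother and not in the 1 with the heterozygous mother. Y-linked UMIs were found in 2 of the 13 and in the 1 with the heterozygous mother. The 5 smooth muscle markers, all detected in the 13 cells, summed to 653 CPM there, against 1227 CPM in the other cells of that library. In the 1 cell with the heterozygous mother 1 of them was detected, at 33.7 CPM.

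These 14 cells were of 2 kinds, told apart by Cma1 after the values had been seen. With Cma1 there were 8 cells, 7 with the null mother and the 1 with the heterozygous mother. They had 30 to 1270 UMIs of Cma1, 182 to 908 of Cpa3, 1 to 430 of Tpsb2, a mast cell tryptase, and 4 to 21 of Kit, and none had a UMI of Fcer1a or Ccl3. Their Mcpt8 was low, at 0 to 4 UMIs, while Prss34 ranged over 0 to 264. Without Cma1 there were 6 cells, all with the null mother. They had 0 UMIs of Tpsb2, Tpsab1 and Mcpt4, 1 to 46 of Cpa3, 0 to 18 of Mcpt8 and 2 to 52 of Ccl3, and 5 of the 6 had Fcer1a. The deepest of the 6, at 54172 UMIs, had UMIs of both Xist and Y-linked genes. It may be a doublet, which was not tested. Both kinds had Hdc, at 21 to 98 UMIs with Cma1 and 8 to 21 without it, and both had Cd200r3 and Il1rl1 in every cell. Gata2 was found in all 14, at 8 to 31 UMIs in cells with Cma1 and 2 to 18 in cells without it.

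**Figure D4:**
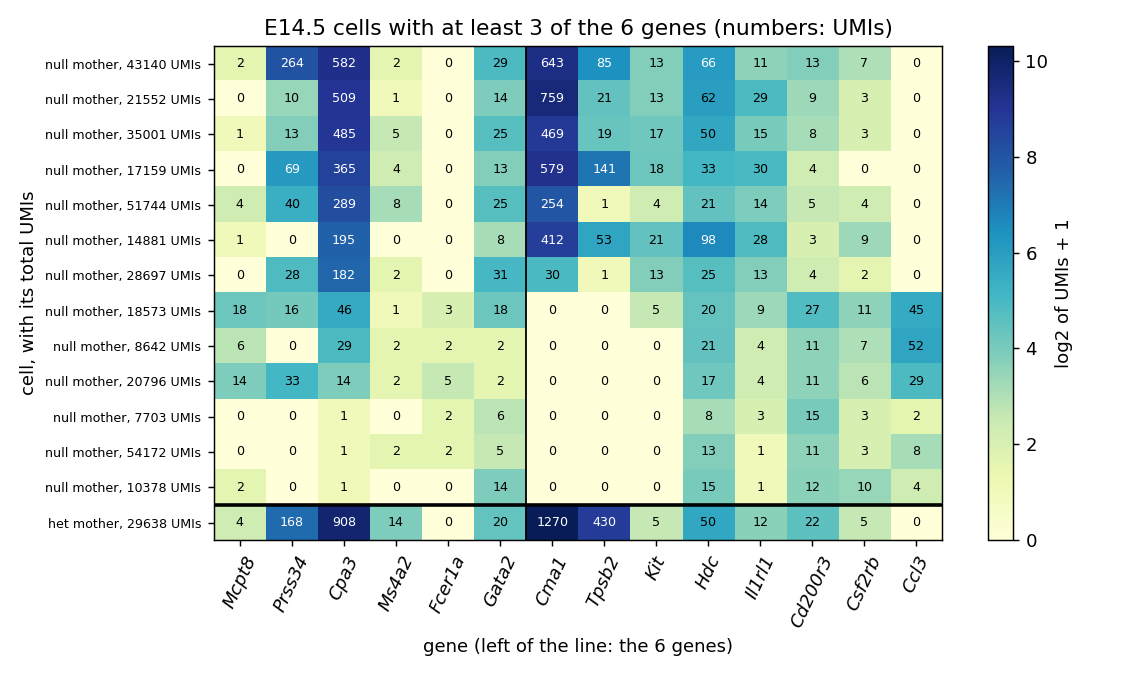
UMIs of the 6 genes and 8 further genes in each of the 14 E14.5 cells with at least 3 of the 6 genes, coloured by log2 of UMIs + 1, with the 13 null-mother cells above the 1 heterozygous-mother cell. The 8 cells with Cma1 have 182 to 908 UMIs of Cpa3 and none of Fcer1a or Ccl3, and the 6 without Cma1 have Ccl3 and 1 to 46 UMIs of Cpa3.

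Outside these cells, Gata2 was the member found most. It was the only member of the 6 in 234 cells with the null mother and 218 with the heterozygous mother at E18.5, and in 142 and 92 cells at E14.5. Megakaryocytes of the E18.5 libraries had 44.7 CPM of Gata2 with the null mother and 55.1 CPM with the heterozygous mother, and endothelium had 9.38 and 13.2 CPM. At E14.5 endothelium had 23.4 CPM with the null mother and 23.1 CPM with the heterozygous mother, with Gata2 in 17.99% and 14.4% of 728 and 571 cells. A cluster of 93 E14.5 cells led by embryonic globin and platelet genes, cluster 23, had 10 and 5 UMIs of Gata2. The counting intervals of the CPM of the 2 mothers overlapped in each of these classes, such as 36.1 to 54.7 CPM with the null mother and 45.1 to 66.6 CPM with the heterozygous mother in the E18.5 megakaryocytes. The share of those megakaryocytes with a UMI of Gata2 ran against the CPM, at 52.0% (41.8 to 62.1) of 100 cells with the null mother and 28.2% (21.9 to 35.2) of 188 with the heterozygous mother. Their median depths were 11847 and 6659 UMIs, so no order is read from it.

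Cpa3 was also found apart from the other proteases. It was the only member in 63 cells with the null mother and 54 with the heterozygous mother at E18.5, and it appeared with Gata2 alone in 31 and 25. In neutrophils and their precursors at E18.5 it was at 2.31 CPM with the null mother and 3.79 CPM with the heterozygous mother. Mcpt8 was in 1.78% of those cells with the null mother (65 of 3643) and 0.773% with the heterozygous mother (30 of 3883). Their median depths were 7205 and 4675 UMIs, and the precursor cluster led by Ctsg, Mpo and Elane had 921 and 566 cells. No order is read from these shares. In erythroid cells, which should lack the proteases, Mcpt8 was in 0.0254% of 3938 cells with the null mother and 0.445% of 6511 with the heterozygous mother, at median depths of 4350 and 3655 UMIs, and Prss34 in 0.102% and 0.307%. Single UMIs of Mcpt8 or Prss34 in other cell types of the heterozygous-mother library may thus be background, which was not tested. By CPM, Mcpt8 in the neutrophils of that library was above it, at 1.77 (1.28 to 2.39) against 0.738 (0.495 to 1.06) in erythroid cells. Fcer1a had 2 UMIs outside cluster 3 and cluster 22, both with the heterozygous mother at E18.5, 1 of them in mesenchyme.

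**Figure D5:**
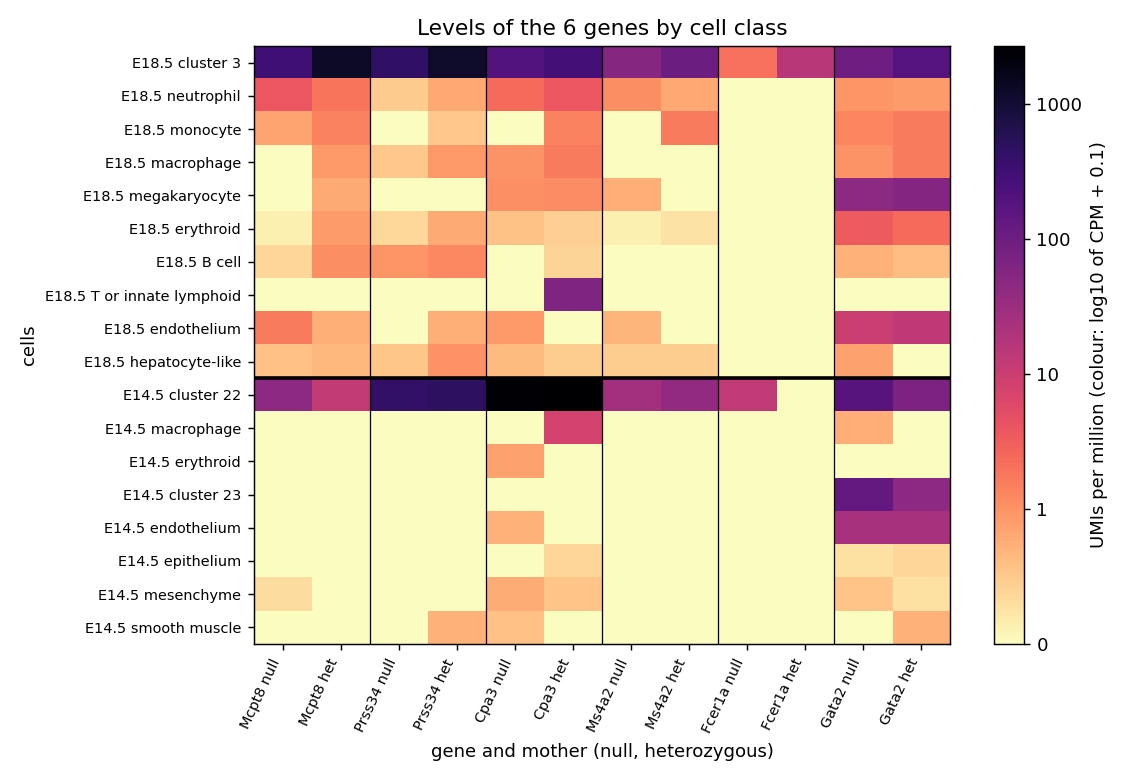
Level of the 6 genes in CPM, coloured on a log10 scale of CPM + 0.1, by cell class (rows, E18.5 above E14.5) and by gene and mother (columns, null left of heterozygous). The members are highest in cluster 3 at E18.5 and cluster 22 at E14.5, and Gata2 is also seen in megakaryocytes (44.7 and 55.1 at E18.5) and endothelium.

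The genes whose pattern was most like that of the members were sought over 96 sums of UMIs, 1 for each cluster of at least 50 cells in each library, among 16190 genes. These sums share libraries and depth, so the correlations of log CPM are a description. Cluster 22 had 48 cells with the null mother and 18 with the heterozygous mother, too few for a sum. The 14 E14.5 cells with at least 3 members thus had no part in these correlations. The 10 genes most like the summed members were Cd200r3 (Pearson r 0.846), Cyp11a1 (0.845), 4930519L02Rik, Grm6, Alox15, Hoxa9, Slc22a3, Il4, Gm11697 and Ear1 (0.783). Alox15 was most like Prss34 (0.989) and Ms4a2 (0.989), Cyp11a1 most like Mcpt8 (0.970) and Gm11697 most like Fcer1a (0.957). Cpa3 (0.872, with Fgf3) and Gata2 (0.833, with Slc22a3) had no gene as close. Cyp11a1 was at 246 and 434 CPM in the E18.5 cells with at least 3 members, for the null and the heterozygous mother, and at 0.0255 and 0.0721 CPM in all other cells of those libraries. Alox15 was at 107 and 107 CPM there, and at 0.0681 and 0.0309 CPM elsewhere. A like pattern over clusters did not always mean a high level in the cells with at least 3 members: Hoxa9 was at 1.73 CPM in them with the null mother and 3.72 CPM with the heterozygous mother, against 2.49 and 2.47 CPM in all other cells. Hoxa9, 4930519L02Rik and Ear1 had 0 UMIs in the 14 such cells at E14.5.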

How the data were processed

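The authors deposited 1 matrix of UMI counts for 43351 cells, in whole numbers that add up to the deposited total of every cell. The submitters' processing notes name Cell Ranger 3.0.0, Seurat 4.3.0 and the build mm10, without order or settings. The lowest total of any cell was 500 UMIs, so low cells had been removed beforehand. The files named for genes and for cells had been exchanged, as their contents show. Depth is given in the report.

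UMIs were summed over cells and divided by the UMIs of the same cells to give CPM. Shares have Clopper-Pearson intervals, counts exact Poisson intervals and ratios the exact conditional interval, all at 95% and for counting error only, since cells of 1 library are not independent samples. With 1 library in each group no test between groups was made. Each age was clustered apart with scanpy 1.11.5 (Leiden, 2000 variable genes, 30 components, 20 neighbours, resolution 1), without the members. Clusters with at least 3 markers of a list were named, by a rule set after the clusters had been seen. It left unnamed those that were mostly doublets, mitochondrial, of low depth, tied between lists, or led by the members, by pancreatic genes or by markers of another class. Scrublet called 6.39% and 4.12% of cells doublets at E18.5 with a null and a heterozygous mother, and 0.475% and 0.0605% at E14.5, where the caller did not work, and all cells were kept. The scripts were tested on simulated counts.

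The 6 genes and the gene lists were chosen with earlier results of these data known. Named besides the members were the 10 genes most like their sum, those most like each member, and genes of the lists with at least 50 UMIs, with a few below that named for contrast. Alternatives were another scaling (edgeR 4.0.16 TMM factors, no haemoglobin), another pseudocount, other minimum counts, other cell sets and other clusterings.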

Additional observations from a re-analysis of the deposited data

Results flagged for a closer look

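The summed members moved in opposite directions with the mother at the 2 ages. The ratio of the null over the heterozygous mother was 0.349 at E18.5 and 2.54 at E14.5. With 1 library in each group this difference between the ages was not tested. The E14.5 value rests mostly on 13 cells with at least 3 members with the null mother and 1 with the heterozygous mother. In all other E14.5 cells the ratio was 1.45 (1.21 to 1.74). The E18.5 libraries carried liver transcripts, so age and tissue content cannot be told apart.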

How the results depend on the processing

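No paired analysis was possible because each group has 1 library. Of 48 values of single members under alternatives that could turn a sign, 48 kept it at E18.5 and 41 at E14.5, where Fcer1a had 0 UMIs in male cells. The E18.5 ratio of the summed members was 0.318 without haemoglobin, 0.333 with TMM factors and 0.389 when averaged over cells. It was 0.322 with the deepest cells (past the 95th percentile of UMIs) left out, 0.305 in cells of 1000 or more genes with mitochondrial UMIs under 10%, and 0.292 in male cells (Y-linked UMIs, no Xist). The E18.5 share of cells with at least 3 members had ratios between 0.529 and 0.921 over its alternatives, and the interval included 1 for at least 2 members and in male cells. At E14.5 the ratio of the sum was 1.28 with the deepest cells left out, 0.331 in male cells, and 13.2 without the cell with the most member UMIs in each library, an alternative chosen after seeing the data. The number of members past 2-fold at E14.5 was 3 with a pseudocount of 1 CPM, and 0 when averaged over cells, with the deepest cells left out and in male cells. The E14.5 share ratio was 1.13 in male cells, with 1 such cell in each library. The cause of these moves was not tested. With 1 library a group, differences between fetuses cannot be told apart from those between mothers.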
